A study of Mus musculus with 33 samples.

Results

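Fibroblast growth factor (FGF) signalling was followed through 10 genes in mouse retinal progenitor cells kept in culture for up to 35 days. The genes were the ligands Fgf2, Fgf9 and Fgf15, the receptors Fgfr1, Fgfr2 and Fgfr3, and 4 genes that respond to the pathway, Spry1, Spry2, Dusp6 and Etv5. They were chosen by name, with earlier results of these data known, and all 10 were found among the 47729 genes counted. Each of the 10 passed the filter on low counts that left 18150 genes for testing, although Fgf15 was above a handful of counts mainly at day 0.

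RNA came from C57BL/6J retinal progenitors of embryonic day 14, sequenced in bulk in 33 libraries, 3 for each of 11 groups. At day 0 the cells were untreated, cone primed with COCO protein, or rod primed with taurine and retinoic acid. The cone induced groups (COCO) and the rod induced groups (taurine and retinoic acid) were sampled at days 5, 12, 21 and 35. COCO is a secreted protein that blocks BMP, TGF-beta and Wnt ligands, taurine is an amino acid abundant in the retina, and retinoic acid is a vitamin A derivative that acts through nuclear receptors. No untreated cells were sampled after day 0, so within each culture time and treatment cannot be told apart from day 5 on. Cone and rod cultures were compared on the same days, but neither with untreated cells of those days. The labels do not say whether replicates were separate cultures or animals, so p-values measure only the spread between these libraries, which may be technical.

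FGF ligands bind receptor tyrosine kinases together with heparan sulphate chains on the cell surface, and the receptors signal through adaptor proteins to the RAS and MAP kinase chain. The chain switches on ETS transcription factors such as Etv5, and also its own brakes: the Sprouty proteins, which act on the chain upstream, and the phosphatase Dusp6, which removes the activating phosphates from ERK. Transcripts of Sprouty, Dusp6 and Etv genes are therefore often read as a record of pathway activity, although other receptor kinases can switch them on too. In the developing eye, FGF signals help set the neural retina apart from the pigment epithelium and are used again when retinal neurons and Muller glia form.

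The libraries held between 7511837 and 19166442 counts in genes. Levels are given as CPM, the counts after edgeR's TMM scaling for depth, and 3 counts in a library correspond to 0.174 to 0.407 CPM. The progenitor gene Pax6 was present in every group, at 341 to 682 CPM. The summed level of 9 photoreceptor genes fell from 893 to 1199 CPM in untreated cells to 12.7 to 39.7 at day 35 in cone culture and 11.5 to 18.1 in rod culture. That of 8 Muller glia genes was 434 to 537 CPM in untreated cells, 3851 to 4754 in cone culture at day 35 and 4413 to 7267 in rod culture. The sum of 6 astrocyte genes was 1.40 to 3.60 CPM in untreated cells, 308 to 466 at cone day 35 and 328 to 426 at rod day 35. For 10 mesenchyme genes it was 5.00 to 26.9, 562 to 3782 and 295 to 821 CPM. For 8 ganglion and amacrine neuron genes it fell, from 680.3 to 849 CPM to 117 to 141 and 114 to 183 CPM. In bulk RNA, fewer cells of a type and less RNA per cell cannot be told apart. The part of these shifts in the changes to day 35 was not tested. Replicate 2 of rod day 12 stood apart from its group, with a lowest within-group correlation of 0.931 and a photoreceptor sum of 1000.4 CPM against 77.3 in the lowest library of that group. Results that rest on it are also given without it.

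By the end of culture all 3 receptors, Fgf2 and the 4 pathway-responsive genes were higher than in primed cells, while Fgf9 and Fgf15 were lower. This held in both cultures: 8 genes rose and 2 fell between day 0 and day 35 in cone culture, where 57.7% of all genes tested were called (31.1% higher, 26.5% lower), and 8 rose and 2 fell in rod culture, where 55.6% were called (29.4% higher, 26.2% lower). A gene was called when its adjusted p from edgeR's quasi-likelihood test with Benjamini-Hochberg adjustment was under 0.05. Since most genes tested were called, the counts alone do not set these 10 genes apart. Without Fgf15, the median log2 fold change of the remaining 9 genes was 3.09 in cone culture and 1.56 in rod culture, and the median over all genes tested was 0.03 and 0.04. With Fgf15 set at the bound given below, the cone median over all 10 was 2.51. The 10 genes were chosen with earlier results known, and similar shares of all genes rose and fell. These medians are therefore a description and do not set the 10 genes apart either. On the deposited TPM, 3 of the 10 genes were called in each culture.

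**Figure D1:**
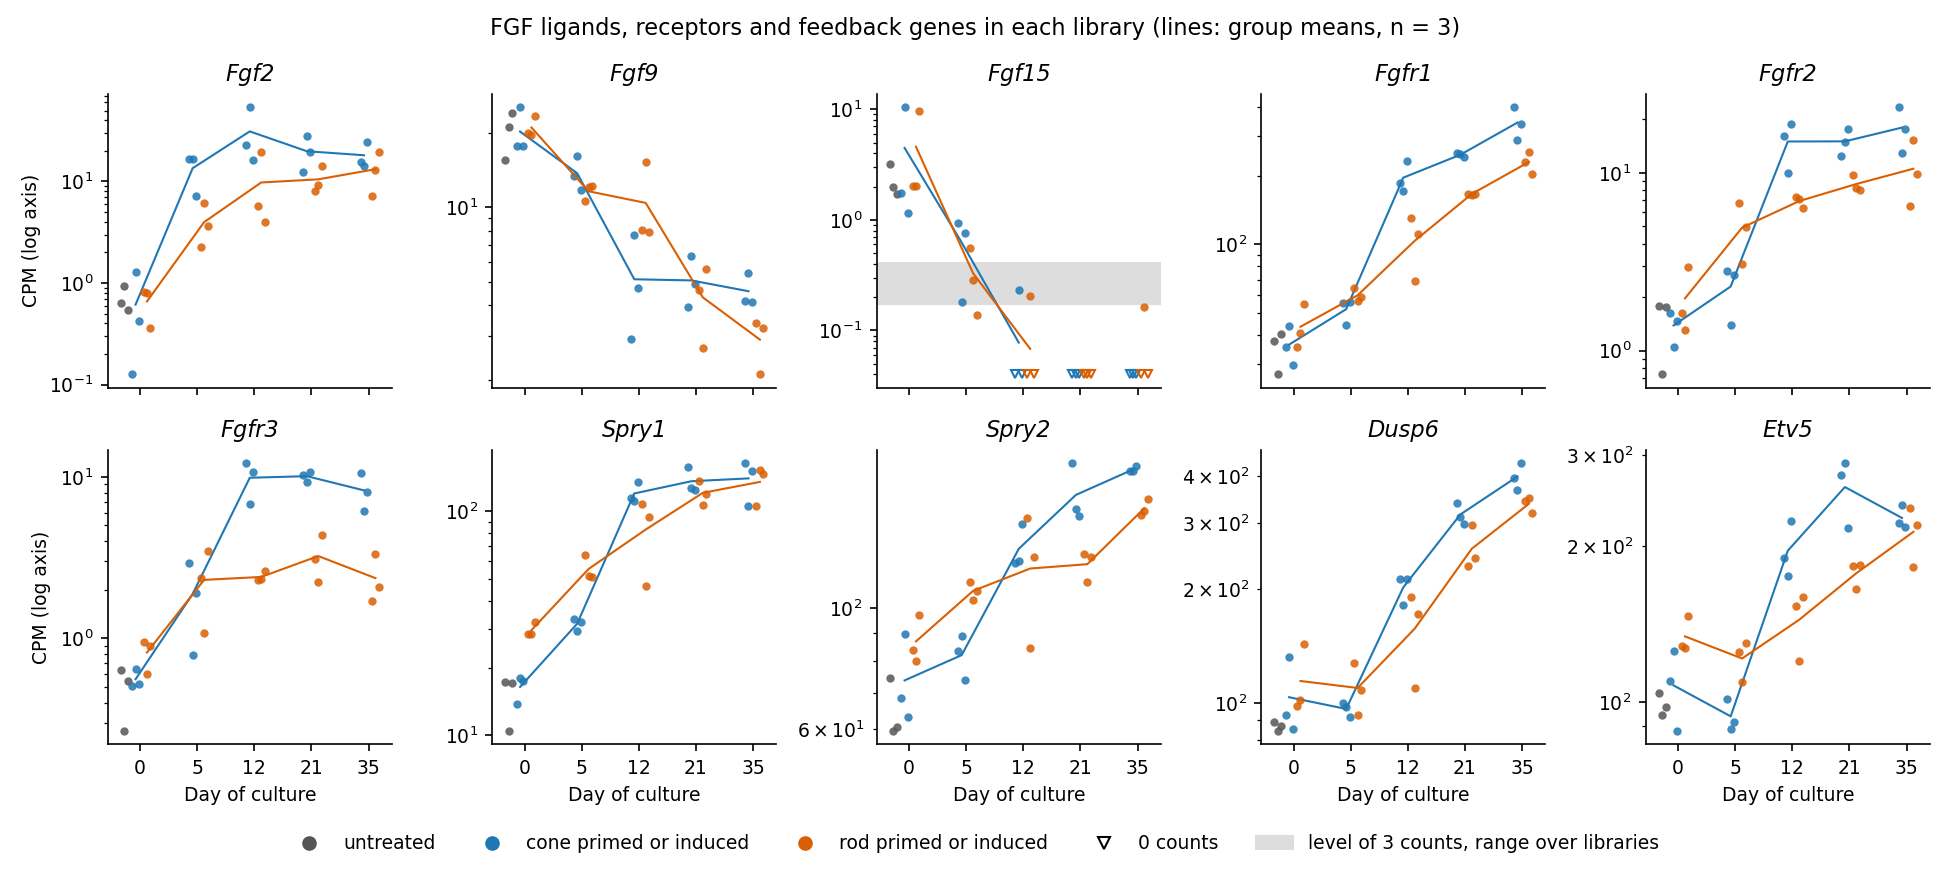
CPM (log axis, its own range in each panel) of each of the 10 genes by day of culture, with 1 point per library, lines through group means where the mean was above 0, open triangles for 0 counts and a grey band at the level of 3 counts in the Fgf15 panel. Fgf2, the 3 receptors and the 4 responsive genes lie higher at day 35 than at day 0 in both cultures, and Fgf9 and Fgf15 lie lower.

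The ligands changed in opposite directions. Fgf2 (mouse genome build GRCm38, chr3:37348346-37410108, + strand), a ligand without a classical secretion signal that is known as a survival factor for retinal neurons, was close to the limit of detection at day 0. Its level was 0.126, 1.29 and 0.419 CPM in the cone primed libraries and 0.814, 0.806 and 0.359 CPM in the rod primed libraries. At day 35 it was 15.7, 14.1 and 24.6 CPM in cone culture and 7.14, 12.9 and 19.6 CPM in rod culture. No day 35 library overlapped with day 0, and the log2 fold change by edgeR was 4.72 ± 0.70 (SE, n = 3 per group, adjusted p = 2.01e-06) for cone and 4.35 ± 0.72 (adjusted p = 1.12e-05) for rod. Without cone primed replicate 2, which held 16 Fgf2 counts against 1 and 4 in the others, the cone value was 5.95. Ranked by group mean, each neighbouring pair of groups from cone day 12 down to rod day 5 overlapped, and the gap in the ranking lay between rod day 5 and the day 0 groups.

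Fgf9 (chr14:58070547-58112337, + strand), a secreted ligand expressed in the early neural retina, went the other way. It stood at 17.6, 25.5 and 17.6 CPM in cone primed cells and 19.9, 19.7 and 23.4 CPM in rod primed cells. At day 35 it stood at 4.18, 5.41 and 4.12 CPM in cone culture and 3.40, 2.10 and 3.23 CPM in rod culture. The ranges were apart in both cultures, and the log2 fold change by edgeR was -2.15 ± 0.30 (adjusted p = 7.91e-07) for cone and -2.85 ± 0.31 (adjusted p = 1.96e-08) for rod.

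Fgf15 (chr7:144896531-144900953, + strand), the mouse counterpart of human FGF19 and a gene of embryonic neural progenitors, was low at day 0 and almost lost afterwards. The counts were 25, 30 and 25 in untreated, 14, 130 and 11 in cone primed and 15, 20 and 108 in rod primed libraries, so 1 library in each primed group carried most of the signal. In CPM these were 3.20, 2.00 and 1.70, then 1.76, 10.5 and 1.15, then 2.03, 2.02 and 9.70. No count was found in any library of cone day 21, cone day 35 or rod day 21. Cone day 35 was at least 17.8-fold lower than cone primed cells, taking 3 counts per library as the limit that a count of 0 allows, and at least 5.79-fold lower without cone primed replicate 2. In rod culture 143 counts at day 0 stood against 2 at day 35, a ratio of 99.6 after scaling with a 95% exact interval of 27.1 to 831 that covers counting error only. Without rod primed replicate 3 the ratio was 40.1 (10.3 to 344). Reads were not marked by molecular identifiers, so such limits ignore PCR duplication.

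All 3 receptors rose. Fgfr1 (chr8:25513654-25575714, + strand), the receptor with the broadest expression in neural progenitors and glia, was measured at 35.5, 44.0 and 29.6 CPM in cone primed cells and 35.4, 40.7 and 54.5 CPM in rod primed cells. At day 35 it had reached 401, 287 and 338 CPM in cone culture and 231, 254 and 204 CPM in rod culture, far outside the day 0 range. The log2 fold change by edgeR was 3.23 ± 0.21 (adjusted p = 7.56e-13) and 2.40 ± 0.20 (adjusted p = 1.90e-10). Fgfr2 (chr7:130162451-133123350, - strand), a receptor for epithelial and mesenchymal FGFs depending on its isoform, went from 1.64, 1.05 and 1.47 CPM to 23.5, 12.9 and 17.5 CPM in cone culture and from 1.63, 1.31 and 2.96 CPM to 6.54, 15.2 and 9.88 CPM in rod culture. Its ranges were also apart, with log2 fold changes of 3.71 ± 0.39 (edgeR adjusted p = 7.63e-09) and 2.39 ± 0.38 (adjusted p = 5.48e-06). Fgfr3 (chr5:33721674-33737068, + strand), a receptor used in astroglia and in cartilage, went from 0.503, 0.647 and 0.524 CPM to 10.5, 6.18 and 8.07 CPM in cone culture. In rod culture it went from 0.949, 0.604 and 0.898 CPM to 1.70, 3.32 and 2.07 CPM. These ranges were apart as well, with log2 fold changes of 3.84 ± 0.46 (edgeR adjusted p = 5.31e-08) and 1.53 ± 0.45 (adjusted p = 0.00571).

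The 4 pathway-responsive genes had also risen by day 35 in both cultures. Spry2, Dusp6 and Etv5 started from higher CPM than the ligands and receptors, while the mean of Spry1 started below that of Fgfr1. Spry1 (chr3:37639947-37644598, + strand) and Spry2 (chr14:105891949-105896819, - strand) encode Sprouty inhibitors of the RAS chain. Dusp6 (chr10:99263231-99267488, + strand) encodes the cytoplasmic ERK phosphatase, and Etv5 (chr16:22381309-22439719, - strand) an ETS factor of the PEA3 family, whose members bind a GGAA core. Spry1 was at 13.8, 18.0 and 17.5 CPM in cone primed cells and at 164, 106 and 151 CPM at cone day 35. In rod culture Spry1 was at 28.4, 28.2 and 32.0 CPM at day 0 and at 106, 153 and 147 CPM at day 35. Spry1 thus had the largest rise of the 4 genes in both cultures, with a log2 fold change of 3.09 ± 0.24 for cone (edgeR adjusted p = 2.83e-11) and 2.20 ± 0.23 for rod (adjusted p = 9.90e-09), and no overlap of ranges.

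The other 3 responsive genes showed smaller rises, each with the day 0 and day 35 ranges apart. Spry2 went from 68.3, 89.7 and 63.1 CPM to 179, 179 and 182 CPM in cone culture, a log2 fold change of 1.29 ± 0.15. In rod culture Spry2 went from 83.7, 79.9 and 97.2 CPM to 148, 151 and 159 CPM, a log2 fold change of 0.81 ± 0.15. Dusp6 rose from 93.3, 132 and 85.4 CPM to 396, 368 and 432 CPM in cone culture, which is 1.94 ± 0.17 on the log2 scale. The rod values for Dusp6 were 98.1, 102 and 143 CPM at day 0 and 343, 350.2 and 320 CPM at day 35, or 1.56 ± 0.17. This phosphatase had the highest level per length of the 10 genes in both day 35 groups. Etv5 changed least among the 8 genes that rose, from 109.9, 125 and 87.9 CPM to 222, 241 and 218 CPM in cone culture (1.07 ± 0.13) and from 128, 127 and 147 CPM to 237, 183 and 220.1 CPM in rod culture (0.67 ± 0.13). The edgeR adjusted p of these 6 rises was at most 0.000104.

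**Figure D2:**
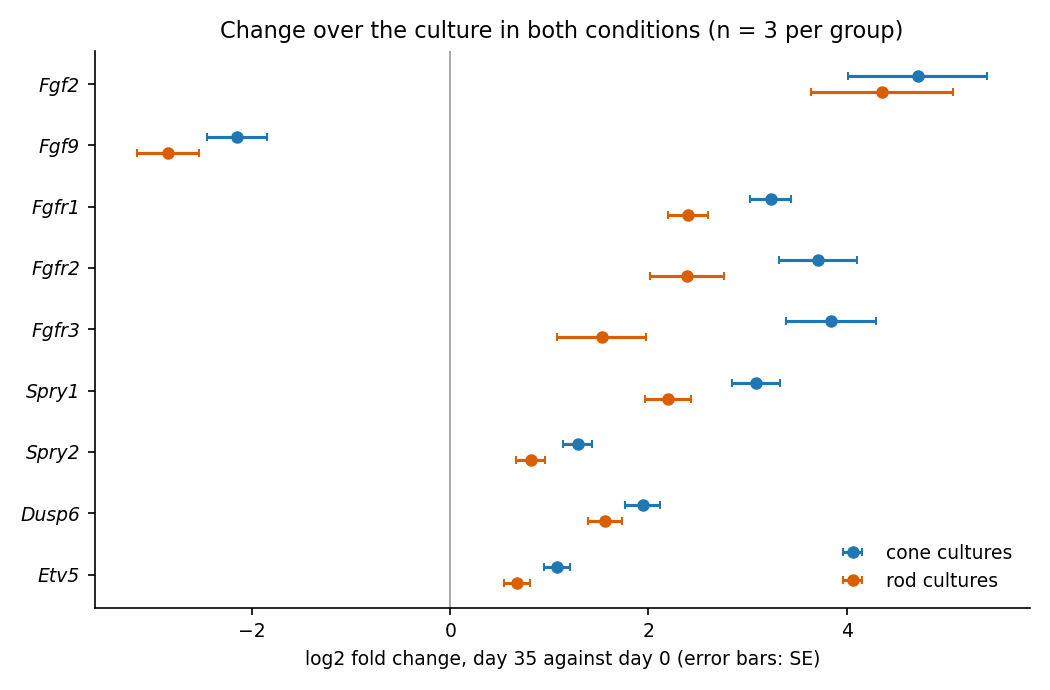
Log2 fold change by edgeR of day 35 against day 0 for 9 genes in cone and in rod culture, with bars of 1 SE and a line at no change; Fgf15 is left out because its cone day 35 libraries held 0 counts. In both cultures 8 genes lie to the right of the line and Fgf9 to the left.

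The promoters of Spry1, Spry2 and Dusp6 are shown because these 3 inhibitors are known outputs of the MAP kinase chain, whose ETS factors bind GGAA. All 3 were higher at day 35 than at day 0 in both cultures. Each is the 250 bases before the transcript start in RefSeq on GRCm38.p6, printed 5′ to 3′ on the gene's strand, with capitals marking GGAA or its complement TTCC. The windows are chr3:37639697-37639946 (+) for Spry1, chr14:105896820-105897069 (-) for Spry2 and chr10:99262981-99263230 (+) for Dusp6.
Spry1: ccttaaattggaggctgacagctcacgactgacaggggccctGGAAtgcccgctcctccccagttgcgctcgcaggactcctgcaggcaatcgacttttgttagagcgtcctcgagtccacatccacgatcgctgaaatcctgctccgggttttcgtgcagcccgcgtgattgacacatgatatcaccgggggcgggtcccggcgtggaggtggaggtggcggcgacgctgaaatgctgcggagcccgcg
Spry2: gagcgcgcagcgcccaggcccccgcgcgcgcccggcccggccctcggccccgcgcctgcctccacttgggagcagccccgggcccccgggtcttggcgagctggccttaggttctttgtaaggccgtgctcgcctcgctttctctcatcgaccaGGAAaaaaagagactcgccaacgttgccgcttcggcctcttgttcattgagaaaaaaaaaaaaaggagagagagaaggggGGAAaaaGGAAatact
Dusp6: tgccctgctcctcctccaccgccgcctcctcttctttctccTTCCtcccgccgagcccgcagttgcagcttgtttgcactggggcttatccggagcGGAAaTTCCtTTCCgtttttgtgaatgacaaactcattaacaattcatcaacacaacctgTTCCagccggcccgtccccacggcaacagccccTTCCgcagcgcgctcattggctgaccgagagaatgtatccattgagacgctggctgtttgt

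The GGAA core was found 1 time before Spry1, 3 times before Spry2 and 6 times before Dusp6, on either strand. Such short words are common: 93.4% of 32851 promoter windows of the same length held at least 1, and their median was 3. Promoter windows were matched for 8 of the 10 genes. The longer words CCGGAA (which contains GGAA, in 12.0% of all windows), AGGTCA (a word bound by nuclear receptors such as those for retinoic acid, in 14.0%) and TGACGTCA (the cyclic AMP response element, in 1.55%) were searched on both strands, and none of the 8 genes' windows held one. These matches describe letters in a window and say nothing of binding.

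Per kilobase of exon, Spry2, Dusp6 and Etv5 had the highest levels of the 10 genes in untreated cells. In untreated cells Spry2 had 31.1, Dusp6 27.8 and Etv5 24.1 CPM per kb, Spry1 5.15, Fgf9 4.34 and Fgfr1 3.55, with Fgf15, Fgfr2, Fgf2 and Fgfr3 between 0.0675 and 0.752. At cone day 35 Dusp6 led with 127 CPM per kb, followed by Spry2 at 86.2, Etv5 at 55.3, Spry1 at 48.3 and Fgfr1 at 34.7. At rod day 35 the same 5 genes stood at 108, 73.2, 52.0, 46.5 and 23.3 CPM per kb. Fgf2, at 2.67 CPM per kb in cone and 1.95 in rod culture, had a higher level than Fgf9 at day 35, at 0.983 and 0.626, which reversed their order in untreated cells.

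The rise was stepwise and its timing differed by gene. From day 0 to day 5 in cone culture, Fgf2, Fgfr3 and Spry1 rose and Fgf15 fell, against 22.3% of all genes called (12.2% higher, 10.2% lower). On the log2 scale Fgf2 made most of its net change to day 35 in this step. It reached 16.6, 16.8 and 7.15 CPM, a log2 fold change of 4.29 ± 0.70 (edgeR adjusted p = 8.98e-05), or 5.52 without cone primed replicate 2. At day 12 Fgf2 stood at 22.7, 54.3 and 16.4 CPM, and no later cone step of Fgf2 was called. Spry1 reached 33.0, 29.3 and 32.2 CPM (0.93 ± 0.23, adjusted p = 0.00495) and Fgfr3 2.94, 0.790 and 1.92 CPM (1.71 ± 0.48, adjusted p = 0.0107), while Fgf15 fell to 0.935, 0.182 and 0.756 CPM (-2.86 ± 0.88, adjusted p = 0.0234). The Fgf15 call rested on replicate 2 of the cone primed group, without which the value was -1.21 (adjusted p = 0.425), and it also ended without replicate 2 or 3 of cone day 5 (adjusted p up to 0.106). The Fgfr3 call ended without replicate 1 of cone day 5 (1.29, adjusted p = 0.0706).

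From day 5 to day 12 in cone culture, 7 of the 10 genes rose and 1 fell, against 43.2% of all genes called (24.6% higher, 18.6% lower). Fgfr1 went from 55.3, 44.5 and 56.1 CPM to 185, 171 and 232 CPM, a log2 fold change of 1.92 ± 0.20 by edgeR (adjusted p = 2.53e-08). Fgfr2 went from 2.81, 1.40 and 2.67 CPM to 16.1, 10.0 and 18.9 CPM (2.70 ± 0.36, adjusted p = 9.94e-07), and Fgfr3 reached 12.1, 6.76 and 10.7 CPM (2.39 ± 0.38, adjusted p = 1.45e-05). In this step the receptors therefore left their day 5 ranges, and so did the 4 responsive genes. Spry1 reached 115, 111 and 135 CPM (1.93 ± 0.23), Dusp6 213, 182 and 213 CPM (1.07 ± 0.17), Etv5 190, 175 and 223 CPM (1.06 ± 0.13) and Spry2 121, 122 and 143 CPM (0.65 ± 0.15), with edgeR adjusted p of at most 0.000726. Fgf9 fell from 13.4, 16.1 and 11.7 CPM to 2.92, 7.69 and 4.72 CPM (-1.40 ± 0.29, adjusted p = 0.000385). All 8 calls were kept when any 1 library was left out.

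Later steps in cone culture were small. From day 12 to day 21 Dusp6 alone was called, against 3.36% of all genes (2.53% higher, 0.826% lower), going from 213, 182 and 213 CPM to 338, 312 and 299 CPM (0.64 ± 0.17, edgeR adjusted p = 0.0328). That call ended without any 1 of the 3 day 12 libraries or without replicate 1 or 2 of day 21 (adjusted p up to 0.169). From day 21 to day 35 edgeR called 0 of the 10 genes and 0.915% of all genes (0.54% higher, 0.375% lower), with 1 of the 10 at an unadjusted p under 0.05 and 2 called by limma-voom with quality weights.

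In rod culture, 4 genes rose and 2 fell from day 0 to day 5, against 17.5% of all genes called (8.76% higher, 8.79% lower). Fgf2 rose to 2.25, 6.08 and 3.61 CPM (log2 fold change 2.65 ± 0.76, edgeR adjusted p = 0.0165), Fgfr2 to 6.74, 3.07 and 4.93 CPM (1.27 ± 0.38, adjusted p = 0.0224) and Fgfr3 to 2.36, 1.07 and 3.47 CPM (1.49 ± 0.46, adjusted p = 0.0240). Spry1 rose to 63.7, 51.6 and 50.7 CPM (0.90 ± 0.23, adjusted p = 0.00676), and this call was kept without any 1 library. Fgf9 fell to 10.6, 12.0 and 12.2 CPM (-0.86 ± 0.28, adjusted p = 0.0369) and Fgf15 to 5, 4 and 2 counts (-3.88 ± 0.99, adjusted p = 0.010). Apart from Spry1, each of these calls ended without 1 library: the Fgf9 call without any 1 of the 6 (adjusted p up to 0.118), the Fgf2 call without rod primed replicate 3 or day 5 replicate 2 (adjusted p up to 0.0938) and the Fgf15 call without rod primed replicate 3 (-2.68, adjusted p = 0.0957) or day 5 replicate 3. The Fgfr2 call ended without rod primed replicate 1 or 2 or day 5 replicate 1 or 3 (adjusted p up to 0.116), and the Fgfr3 call without rod primed replicate 2 or 3 or day 5 replicate 3 (adjusted p up to 0.173).

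The next 2 steps in rod culture both turn on the day 12 group, whose replicate 2 stood apart. From day 5 to day 12, Fgfr1 and Dusp6 rose, against 18.3% of all genes called (12.7% higher, 5.59% lower). Fgfr1 went from 64.5, 56.2 and 58.7 CPM to 131, 69.0 and 111 CPM (0.79 ± 0.19, edgeR adjusted p = 0.00428), and without rod day 12 replicate 1 the value was 0.59 (adjusted p = 0.0599). Dusp6 went from 128, 93.2 and 108 CPM to 191, 110 and 172 CPM with overlapping ranges (0.52 ± 0.17, adjusted p = 0.0313), and its call ended without replicate 1 or 3 of day 12 or 2 or 3 of day 5 (adjusted p up to 0.227). From day 12 to day 21, Fgfr1 and Dusp6 rose again and Fgf9 fell, against 11.2% of all genes (4.88% higher, 6.29% lower). Fgf9 went from 8.07, 15.2 and 7.93 CPM to 4.63, 2.70 and 5.61 CPM (-1.26 ± 0.30, adjusted p = 0.00753), Fgfr1 to 167, 165 and 167 CPM (0.68 ± 0.19, adjusted p = 0.0205) and Dusp6 to 230.5, 296 and 243 CPM (0.70 ± 0.17, adjusted p = 0.00875).

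Without rod day 12 replicate 2, 3 of the 10 genes were called from day 5 to day 12 and 0 from day 12 to day 21. The day 12 to day 21 values were then -0.89 for Fgf9 (edgeR adjusted p = 0.103), 0.45 for Fgfr1 (adjusted p = 0.195) and 0.49 for Dusp6 (adjusted p = 0.104). The Fgfr1 call also ended without replicate 1 or 3 of rod day 21 (adjusted p up to 0.0643). When the compared groups alone were fitted, 0 of the 10 genes were called in either step, with Fgfr1 at 0.77 (adjusted p = 0.0956) from day 5 to day 12. From day 21 to day 35 edgeR called 0 of the 10 genes and 1.54% of all genes (0.667% higher, 0.876% lower), with 3 of the 10 at an unadjusted p under 0.05 and 0 called by DESeq2 or limma-voom.

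Rod priming raised 2 of the responsive genes at day 0. Against untreated cells, Spry1 and Etv5 were higher and no gene of the 10 was called lower, where 10.3% of all genes were called (6.71% higher, 3.56% lower). Spry1 went from 17.3, 10.5 and 17.2 CPM to 28.4, 28.2 and 32.0 CPM, ranges that did not overlap (log2 fold change 0.99 ± 0.24, edgeR adjusted p = 0.00724). Etv5 went from 104, 94.4 and 97.7 CPM to 128, 127 and 147 CPM, also apart (0.44 ± 0.13, adjusted p = 0.0322). The ranges of Spry2 (59.5 to 74.6 CPM against 79.9 to 97.2) and Dusp6 (84.4 to 89.3 CPM against 98.1 to 143) were apart too, but their values of 0.43 ± 0.15 (adjusted p = 0.0623) and 0.40 ± 0.17 (adjusted p = 0.143) did not pass. Without untreated replicate 2 the Spry1 value was 0.82 (adjusted p = 0.0506), and the Etv5 call ended without untreated replicate 2 or 3 or rod primed replicate 3 (adjusted p up to 0.168). In the same libraries the summed level of 8 genes of dividing cells was 793 to 1226 CPM in untreated and 1729 to 2189 CPM in rod primed cells. The sum of 8 Muller glia genes was 434 to 537 and 1108 to 1393 CPM, that of 12 progenitor genes 1475 to 1675 and 1952 to 2266 CPM, and that of 8 ganglion and amacrine neuron genes 680.3 to 849 and 421 to 441 CPM. Their part in these differences was not tested.

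Cone priming gave 0 calls among the 10 genes and 0.0% among all genes tested by edgeR, with 0 of the 10 at an unadjusted p under 0.05 and 0 called by DESeq2 or limma-voom. The values of the 9 genes other than Fgf15 lay between -0.07 and 0.29 on the log2 scale, with standard errors of 0.13 to 0.92, and every pair of ranges overlapped. When the primed groups were compared with each other, Spry1 was lower in cone than in rod primed cells (-0.84 ± 0.24, edgeR adjusted p = 0.0292) and the only 1 of the 10 genes called, against 7.27% of all genes (2.5% higher, 4.77% lower). The Spry1 ranges, 13.8 to 18.0 CPM and 28.2 to 32.0 CPM, were apart, but the call ended without any 1 of cone primed replicates 1 and 3 and the 3 rod primed libraries (adjusted p up to 0.120).

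Cone and rod cultures differed later in ligand and receptor levels. Over the mean of days 5 to 35, Fgf2, Fgfr1, Fgfr3 and Etv5 were higher in cone than in rod culture and none of the 10 was lower, where 27.8% of all genes were called (15.6% higher, 12.2% lower). The largest difference among them was that of Fgfr3, at 1.29 ± 0.19 on the log2 scale (edgeR adjusted p = 6.86e-06), followed by Fgf2 at 1.19 ± 0.26 (adjusted p = 0.00100) and Fgfr1 at 0.47 ± 0.09 (adjusted p = 0.000487). These 3 calls were kept without any 1 library and in each other treatment of the counts that was run. Etv5 was higher by only 0.18 ± 0.07 (adjusted p = 0.0422), and its call was lost in 17 of 29 alternatives, down to 0.09 (adjusted p = 0.202) with limma-voom. Spry1, with a difference of -0.01 ± 0.11, and Fgf9, with 0.03 ± 0.15, had the smallest mean differences of the 9 genes other than Fgf15. On the deposited TPM, which lists Fgfr3 at 0 in 6 libraries, 4 of them with 10 or more counts, none of the 10 genes was called and the Fgfr3 difference was -0.10.

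The difference was not the same at each day. At day 5, against 9.28% of all genes called (3.48% higher, 5.8% lower), Fgf2 was higher and Spry1 lower in cone culture. Fgf2 stood at 16.6, 16.8 and 7.15 CPM in cone and 2.25, 6.08 and 3.61 CPM in rod libraries, ranges that were apart (1.73 ± 0.55, edgeR adjusted p = 0.0445). Spry1 stood at 33.0, 29.3 and 32.2 CPM in cone and 63.7, 51.6 and 50.7 CPM in rod libraries, also apart (-0.81 ± 0.22, adjusted p = 0.0197). The Fgf2 call ended without cone replicate 1 or 2 or rod replicate 1 or 3 (adjusted p up to 0.205), and the Spry1 call without any 1 cone library or rod replicate 1 (adjusted p up to 0.112). Fgfr2 (1.40 to 2.81 CPM against 3.07 to 6.74), Spry2 (73.9 to 88.8 against 104 to 112) and Etv5 (88.5 to 102 against 109 to 130) had lower ranges in cone culture that did not meet those of rod culture, with adjusted p from 0.0588 to 0.0924, and so had Fgfr1 (44.5 to 56.1 against 56.2 to 64.5, adjusted p = 0.585). At this day the summed level of 8 genes of dividing cells was 567 to 764 CPM in cone and 1390 to 1561 CPM in rod culture, and its part in these differences was not tested.

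By day 12 the receptors were higher in cone culture. Against 10.1% of all genes (5.98% higher, 4.12% lower), 5 of the 10 genes were higher and 1 lower. Fgfr3 stood at 12.1, 6.76 and 10.7 CPM in cone and 2.28, 2.32 and 2.60 CPM in rod libraries (2.03 ± 0.38, edgeR adjusted p = 0.000619). Fgfr1 stood at 185, 171 and 232 CPM against 131, 69.0 and 111 CPM (0.92 ± 0.19, adjusted p = 0.00191), and Fgfr2 at 16.1, 10.0 and 18.9 CPM against 7.28, 7.16 and 6.34 CPM (1.11 ± 0.33, adjusted p = 0.0291). The ranges of all 3 receptors were apart. Fgf2, at 22.7, 54.3 and 16.4 CPM against 5.78, 19.6 and 3.96 CPM, was higher with overlapping ranges (1.67 ± 0.52, adjusted p = 0.0380). Etv5, at 190, 175 and 223 CPM against 153, 120 and 160 CPM, was higher by 0.44 ± 0.13 (adjusted p = 0.0287). Fgf9, at 2.92, 7.69 and 4.72 CPM against 8.07, 15.2 and 7.93 CPM, was lower (-1.0 ± 0.30, adjusted p = 0.0281).

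These day 12 calls were unequal in how they held. The Fgfr3 call was kept under each count-based alternative and without any 1 library, and the Fgfr1 call was lost only when the 2 compared groups alone were fitted (0.90, adjusted p = 0.122). The Fgfr2 call ended without cone replicate 1 or 3 or rod replicate 2 or 3 (adjusted p up to 0.164) and the Fgf2 call without cone replicate 2 (0.99, adjusted p = 0.259) or rod replicate 1 or 3. Without rod replicate 2 the Fgf2 difference was 2.67, and the call was kept. The Fgf9 call ended without cone replicate 1 or 3 or rod replicate 2 (-0.63, edgeR adjusted p = 0.243), and the Etv5 call without cone replicate 3 (adjusted p = 0.215) or rod replicate 2 (0.32, adjusted p = 0.185). Without rod day 12 replicate 2, 3 of the 10 genes were called, and with the 2 groups alone, 1 was.

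At days 21 and 35 Fgfr3 remained higher in cone culture. At day 21, where 9.0% of all genes were called (5.86% higher, 3.14% lower), Fgfr3 stood at 10.2, 9.33 and 10.7 CPM in cone against 3.09, 2.24 and 4.37 CPM in rod libraries (1.64 ± 0.37, edgeR adjusted p = 0.00450). Etv5, the other of 2 genes called, stood at 275, 289 and 217 CPM against 183, 165 and 184 CPM (0.55 ± 0.13, adjusted p = 0.00701), and without cone replicate 2 its value was 0.46 (adjusted p = 0.0526). The ranges of Fgfr1 (0.57 ± 0.19, adjusted p = 0.0578), Fgfr2 (0.80 ± 0.33), Spry2 (0.42 ± 0.14) and Dusp6 (0.30 ± 0.17) were also apart and higher in cone culture at day 21, but did not pass. At day 35, where 12.3% of all genes were called (7.77% higher, 4.51% lower), Fgfr3 stood at 10.5, 6.18 and 8.07 CPM against 1.70, 3.32 and 2.07 CPM (1.80 ± 0.38, adjusted p = 0.00175). Fgfr1, the second gene called, stood at 401, 287 and 338 CPM against 231, 254 and 204 CPM (0.57 ± 0.19, adjusted p = 0.0447). Both genes had ranges that were apart at day 35, and the Fgfr1 call ended without cone replicate 1 or 3 or rod replicate 1 or 3 (adjusted p up to 0.203). At the same day the difference was 0.05 ± 0.22 for Spry1 and 0.09 ± 0.13 for Etv5, with overlapping ranges, and it was 0.24 ± 0.17 for Dusp6 and 0.24 ± 0.14 for Spry2, with ranges apart (adjusted p from 0.332 to 0.921). Fgf9, at 4.12 to 5.41 CPM in cone and 2.10 to 3.40 CPM in rod culture, had ranges apart as well (0.65 ± 0.32, adjusted p = 0.211).

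An F test in the same fit asked whether the distance between cone and rod culture varied over the 5 days. It did for 6 of the 10 genes, against 9.22% of all genes called: Etv5 (edgeR adjusted p = 0.00229), Fgfr3 (0.00681), Spry1 (0.0102), Fgfr1 (0.0112), Fgfr2 (0.0122) and Spry2 (0.0354). For Fgf2 (adjusted p = 0.499), Dusp6 (0.252) and Fgf9 (0.0714) the test did not pass. Medians over the 9 genes other than Fgf15 come from the same fit, so they describe these differences and are no second test. The median log2 difference was -0.26 at day 0 and -0.30 at day 5. It was 0.54, 0.55 and 0.45 at days 12, 21 and 35, while medians over all genes tested lay between -0.01 and 0.03. The genes did not share 1 course: 1 of the 9 lay above 0 at day 0 and 2 at day 5, and 1 lay below 0 at day 12. At days 21 and 35 all 9 lay above 0.

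**Figure D3:**
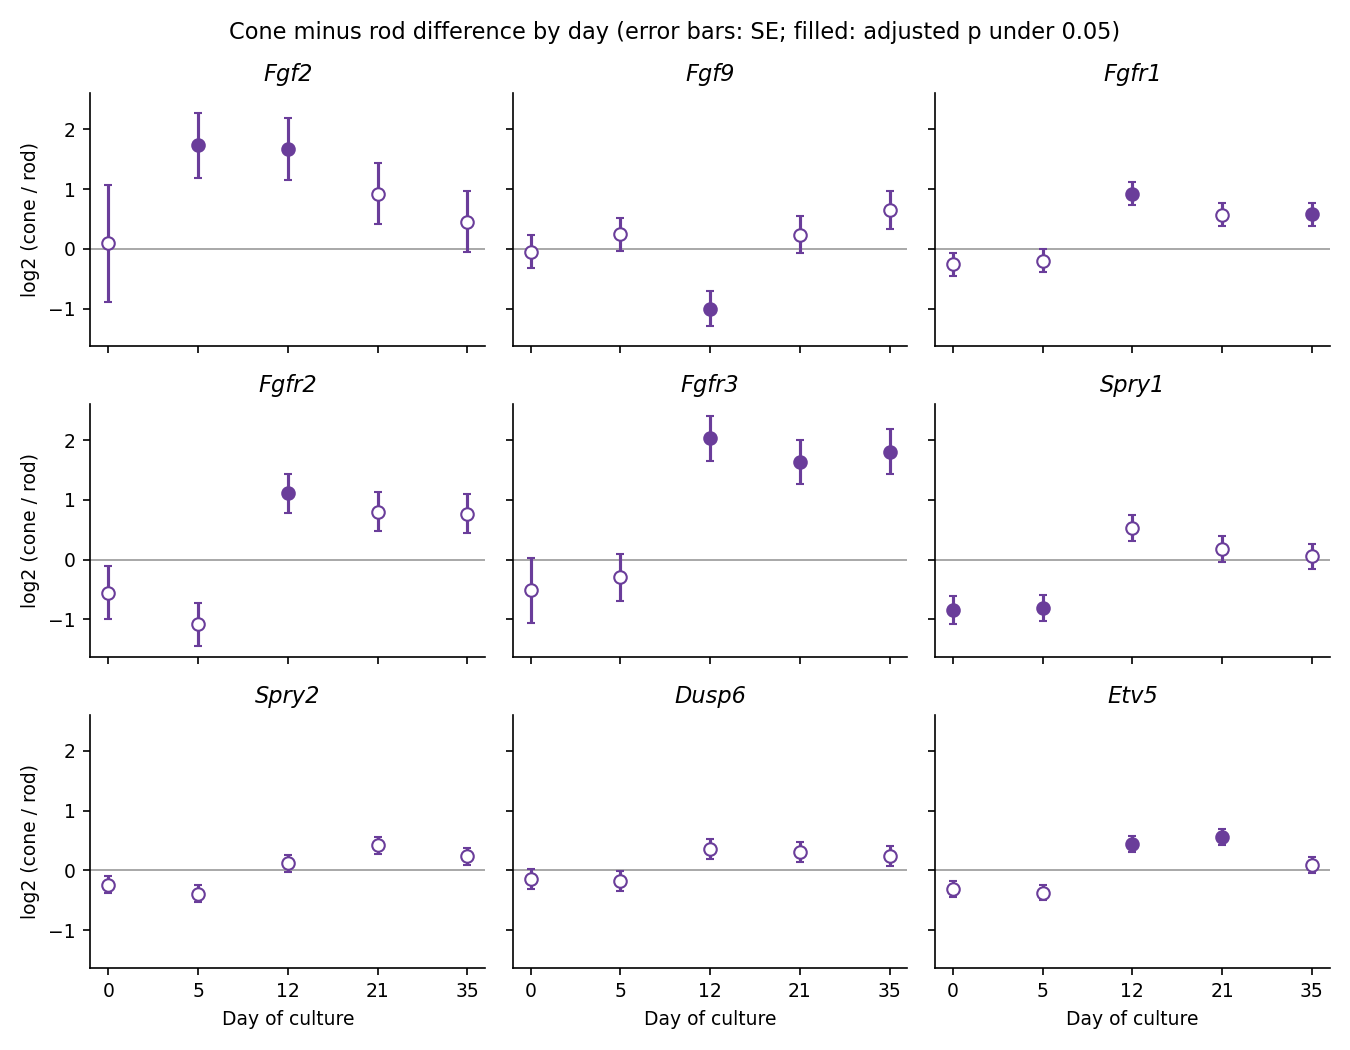
Cone minus rod difference on the log2 scale by day for the 9 genes other than Fgf15, from edgeR with bars of 1 SE, filled where the adjusted p was under 0.05. Spry1 lies below 0 at days 0 and 5, and Fgfr3 lies above 0 at days 12, 21 and 35.

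Genes of other cell types differed between the cultures as well. From day 12 to 35 the mean summed level of 10 mesenchyme genes was higher in cone culture. It ranged over 331 to 422 CPM against 81.1 to 200 CPM at day 12 and 633 to 738 against 199 to 395 at day 21. At day 35 the ranges overlapped, at 562 to 3782 against 295 to 821. Of the 9 tested, 4, 3 and 6 were called higher on these days and 1, 0 and 0 lower. The shares of all genes called higher on these days were 5.98%, 5.86% and 7.77%. The sum of 7 microglia genes at day 35 was 14.9 to 76.8 CPM in cone and 1.19 to 1.70 CPM in rod culture, and that of 8 lens genes was 198 to 271 against 121 to 145 CPM. That of 6 astrocyte genes was 383 to 536 CPM in cone and 198 to 355 CPM in rod culture at day 21. Its ranges overlapped at days 12 and 35. Of 12 retinal progenitor genes, 1 was higher and 6 were lower in cone culture over the mean of days 5 to 35, against 15.6% and 12.2% of all genes. The part of these cell types in the receptor differences was not tested.

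The receptor repertoire was dominated by Fgfr1 throughout. Of the summed level per kb of Fgfr1 to Fgfr4, Fgfr1 made up 82.8% to 94.0% in the group means. Fgfr3 made up 5.73% ± 1.36 (SD, n = 3) at cone day 12 and 3.03% ± 0.87 at rod day 12, and 2.93% ± 0.27 against 1.31% ± 0.34 at day 35. Fgfr4, which is outside the 10 genes and is named here after its values were seen, rose in cone culture, with 36 to 71 counts at cone day 35 against 3 to 13 at rod day 35. Its cone minus rod difference was 2.93 ± 0.74 at day 12 (edgeR adjusted p = 0.010), 2.29 at day 21 (adjusted p = 0.0398) and 3.03 ± 0.75 at day 35 (adjusted p = 0.00705).

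**Figure D4:**
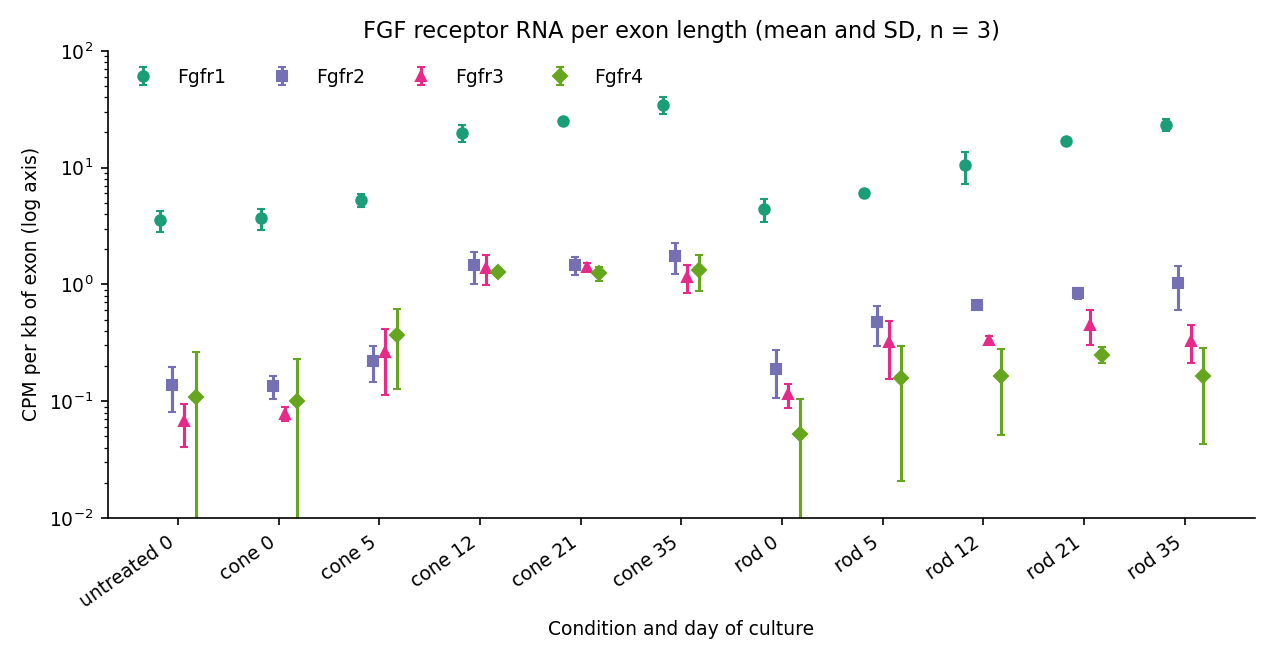
Mean CPM per kb of exon (log axis) of Fgfr1 to Fgfr4 in each of the 11 groups, with bars of 1 SD over 3 libraries; bars of Fgfr4 that run off the bottom reach 0 or below. Fgfr1 lies above the other receptors in every group.

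The rest of the pathway was read from 84 further genes in 7 lists, of which 73 were tested. Between day 0 and day 35, 49 rose and 8 fell in cone culture, where 31.1% of all genes rose and 26.5% fell. In rod culture 44 rose and 9 fell, where 29.4% of all genes rose and 26.2% fell, and the counts for each list stand against the same shares. All 12 called genes of the 13 heparan sulphate enzymes and carriers in cone culture rose, and all 10 called in rod culture, led by Sulf1, which trims sulphate groups from heparan sulphate (5.69 and 4.01 on the log2 scale), and by the cell surface proteoglycans Sdc4 (4.19, cone) and Gpc4 (3.12, rod). Of 13 further transcriptional targets, 12 rose and 1 fell in cone culture and 12 rose in rod culture, among them the immediate early gene Fos (4.87 and 4.81). Of 12 further feedback inhibitors, 8 rose and 1 fell in cone and 7 rose and 1 fell in rod culture. The rises were led by Spry4 (2.72 and 2.01), with the membrane inhibitor Il17rd (1.70) in cone and Spred2 (1.27) in rod culture. Of 7 other receptors and co-receptors tested, 5 rose in cone culture, and 4 rose and 1 fell in rod culture, including the decoy receptor Fgfrl1 (2.94 and 1.87). The adaptors and kinases were mixed, with 8 higher and 4 lower in cone and 8 higher and 5 lower in rod culture, the adaptor Shc1 (3.58 and 2.22) and the scaffold Ksr1 (1.69 and 1.62) being named by size. Genes outside the naming rule that fell, picked out after their values were seen, were Spry3 in both cultures (-1.72 and -1.13), Elk1 in cone (-0.61) and Flrt3 in rod culture (-0.90), and among adaptors and kinases Frs3 and Braf in both, with Map2k2 in rod culture.

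Ligands outside the 10 genes included some that were nearly absent at the start. Fgf1, an acidic ligand that binds every FGF receptor, was at 0 to 0.136 CPM in untreated, 0 to 0.755 in cone primed and 1.41 to 10.9 in rod primed cells. At day 35 it stood at 93.4 to 112 CPM in cone and 149.8 to 228 CPM in rod culture. Fgf23, a hormone-like ligand, was at 0 to 0.126 CPM in cone primed and 0.101 to 0.678 CPM in rod primed cells and at 4.27 to 7.38 and 14.8 to 24.0 CPM at day 35. Of the 4 intracellular FGF homologues, which bind sodium channels rather than receptors, 2 fell in both cultures, with log2 fold changes of -2.89 in cone and -3.87 in rod culture for Fgf12 and of -1.69 and -3.78 for Fgf14, while the other 2 of the 4 were not called.

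Rod priming called 8 of these 73 genes higher and 3 lower, against 6.71% and 3.56% of all genes. Fgf1 rose most on the log2 scale (5.60), from a mean of 0.0897 CPM in untreated to 5.49 CPM in rod primed cells. The early response gene Ier3 (2.79), Sulf1 (2.36), the adhesion partner of FGF receptors Flrt1 (2.01) and the ETS factor Etv1 (1.13), a relative of Etv5, also rose. So did the Sprouty-related inhibitor Spred2 (0.92), the heparan sulphate enzyme Hs2st1 (0.79) and Ksr1 (0.72). Fgf12 (-1.56), the kinase Braf (-0.42) and the ligand Fgf18 fell, the last named after its values were seen and low throughout (mean 0.751 CPM in untreated and 0.139 CPM in rod primed cells). Without untreated replicate 2 or rod primed replicate 3 the calls of Fgf12, Ksr1 and Braf ended, and that of Braf also without untreated replicate 3 or rod primed replicate 1 (adjusted p up to 0.101). Over the mean of days 5 to 35, 22 were higher in cone than in rod culture and 15 lower, against 15.6% and 12.2% of all genes. Higher in cone culture were Fgf12 (1.52), Sdc4 (1.03), Fgf14 (1.00), Flrt2 (0.85), the nuclear phosphatase Dusp4 (0.78), Gpc4 (0.76) and Shc1 (0.42), and lower were Flrt1 (-1.76), Ier3 (-1.41), Spred2 (-1.06), Fgf1 (-0.76), Etv1 (-0.70) and Ksr1 (-0.52). Further feedback inhibitors were split, 4 higher and 4 lower, and further targets 3 higher and 5 lower, so neither list moved in 1 direction.

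**Figure D5:**
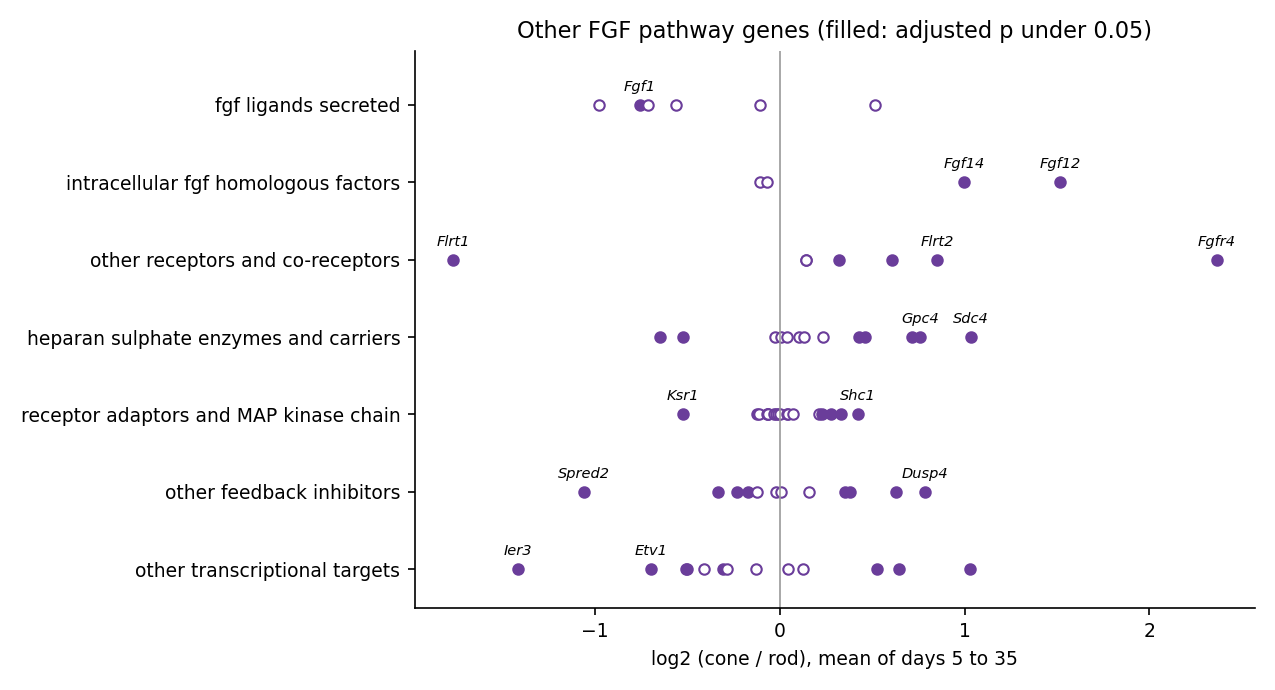
Cone minus rod difference over the mean of days 5 to 35 (log2 scale, edgeR) of the tested genes in the 7 further lists, 1 point per gene, filled where the adjusted p was under 0.05, with names for the genes named by size and for Fgfr4. Of the 73 tested genes, only those with an SE under 5 are drawn. Filled points lie on both sides of 0 in the lists of co-receptors, heparan sulphate genes, adaptors, inhibitors and targets.

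Among the 10 genes, group means of log2 CPM over the 11 groups ran most alike for Fgfr2 and Spry1 (Pearson r = 0.976) and most opposed for Fgf9 and Fgfr1 (r = -0.950), while the ligands Fgf9 and Fgf15 ran together (r = 0.901). These are descriptions over 11 points that share libraries and time in culture. Fgf15 held 0 to 3 counts per library after day 5, so its correlations mostly set day 0 against later groups near the floor. Against 11908 other genes, the closest were Ern1, Tnk2 and Paqr8 for Fgf2, Serpini1, Faah and Sarm1 for Fgf9, and Idh1, Mex3d and Bach1 for Fgf15. For the receptors they were Rbm43, Swap70 and App (Fgfr1), Plxdc2, Flot1 and Card10 (Fgfr2) and Dnmbp, Igf1 and Jdp2 (Fgfr3). For the responsive genes they were Ccdc102a, Pdlim5 and Axl (Spry1), Sumf1, Parp9 and Tmem47 (Spry2), Bcap31, Fam174b and Btd (Dusp6) and Manf, Erp29 and Crat (Etv5). Each of these had r of at least 0.974, but such likeness is common here: 3.28% of the genes compared exceeded r = 0.9 with Fgf2 and 15.6% with Fgfr1.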

How the data were processed

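Total RNA of 33 libraries was sequenced after extraction and library preparation with low-input Takara kits, per the labels' protocols. The authors deposited raw counts per gene, which were used here, and tables that per the file headers hold TPM, FPKM and coverage. HISAT2, StringTie, HTSeq and build GRCm38 are named in the submitters' processing notes, and the strand setting is not given in the sources used here. The deposited TPM served only as an alternative: within a library it tracked counts with r of 0.355 to 0.467 over 6475 genes, and Fgfr2 was listed at 0 in 20 libraries that each held 10 or more counts. The deposited FPKM and coverage values were not used.

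Reads in genes were 26.9% to 34.9% of those counted. Genes were filtered with filterByExpr (minimum count 10, 18150 of 32488 kept), scaled by TMM and fitted in 1 quasi-likelihood model over all 33 libraries (edgeR 4.0.16, limma 3.58.1, R 4.3.3, 22 residual degrees of freedom). Errors of fold changes are standard errors, and p-values were adjusted by Benjamini-Hochberg over all genes within a comparison, with a threshold of 0.05. The fit was tested on simulated data. Alternatives were other scaling, no filter, DESeq2 1.42.0, limma-voom with quality weights, a replicate block, the compared groups alone, leaving out each library, and limma on log2(TPM + 1). Levels per kb used exon unions of GENCODE M21. The opposite strand overlaps 9.44% of the exon bases of Fgf2, 24.9% of Fgf15, 24.4% of Spry1 and 13.9% of Fgfr3, and the genes there held at most 55 counts in a library. Fgfr2 shares 3.04% with Ctbp2 on its own strand, and Ctbp2 held 452 to 2235 counts in a library. The effect of this overlap on the Fgfr2 counts was not tested.

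The 10 genes, the further lists and the naming rules were chosen with earlier results of these data known. All 10 are named. In other lists up to 2 called genes with mean log2 CPM of at least 1 and the largest change per list are named in the priming of rods, day 35 and mean cone minus rod comparisons. The 3 genes closest to each of the 10 by correlation of group means are named too. Values of some genes in the lists are not reported here.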

Additional observations from a re-analysis of the deposited data

Results flagged for a closer look

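The cone minus rod difference itself changed across days 0 to 35 for 6 of the 10 genes, by the F test of edgeR's quasi-likelihood fit. The adjusted p was 0.0112 for Fgfr1, 0.0122 for Fgfr2, 0.00681 for Fgfr3, 0.0102 for Spry1, 0.0354 for Spry2 and 0.00229 for Etv5. For Fgfr1, Fgfr2, Fgfr3, Spry1 and Etv5 the call was kept in each of 35 count-based alternatives, with adjusted p up to 0.0422 for Fgfr2. For Spry2 it was lost in 17 of 35, with adjusted p up to 0.102. Groups of 3 libraries are too small for a test of single outlying libraries.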

How the results depend on the processing

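Counts of called genes among the 10 varied with the treatment of the counts at single days and little over long intervals. Leaving out 1 library gave 0 to 3 for rod priming, 0 to 1, 0 to 3, 3 to 6, 1 to 2 and 1 to 3 for cone against rod at days 0, 5, 12, 21 and 35, 3 to 5 for the mean of days 5 to 35 and 5 to 7 for the change with day. The same gave 3 to 4, 8 to 9, 0 to 2 and 0 for the successive cone steps, 2 to 4, 0 to 3, 0 to 4 and 0 for the successive rod steps, 10 in both day 35 against day 0 comparisons and 0 for cone priming. Without the filter 1 gene was called for rod priming, and 3 calls were lost in all (Etv5 for rod priming and for the mean of days, Spry2 for the change with day). DESeq2 called 2 from cone day 12 to day 21 and added 6 calls in all: Spry2 for rod priming, Fgfr2 at day 5, Fgfr1 at day 21, Fgf9 for the change with day, Fgfr1 from cone day 0 to day 5 and Etv5 from cone day 12 to day 21. RLE scaling added 2, Spry2 for rod priming and Fgfr1 from cone day 0 to day 5, and neither of these ended a call. Limma-voom with quality weights called 2 at day 0, 5 at day 5 and 5 at day 21 between cone and rod, 2 from cone day 21 to day 35, 6 from rod day 5 to day 12 and 5 from rod day 12 to day 21. Fitting the compared groups alone gave 4, 1, 4 and 1 for cone against rod at days 5, 12, 21 and 35 and 0 in the rod steps to day 12 and to day 21.

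On the deposited TPM, limma called 0 of the 10 genes for rod priming, for cone against rod at days 0, 5, 21 and 35, over the mean of days and for the change with day. It also called 0 in the cone steps to day 5 and day 21 and the rod steps to days 5, 12 and 21, 1 at day 12 between cone and rod, 1 from cone day 5 to day 12 and 3 in each day 35 against day 0 comparison. Signs were reversed on this scale for Fgf1 (-0.56), Ier3 (-0.28) and Sulf1 (-0.21) under rod priming and for Fgf2 at day 5 (-0.38), Fgfr2 at day 12 (-0.22) and Fgfr3 (-0.33 at day 12, -0.41 at day 21, -0.10 for the mean). They were also reversed for Fgfr2 (-0.056), Fgfr3 (-0.59) and Spry2 (-0.68) from cone day 5 to day 12, Fgf14 (0.068) at cone day 35 and Spry1 (-0.28) at rod day 35. The cause was not tested. Over 165 same-numbered pairs the deviations correlated at -0.259 to 0.513 (median 0.016), with 48 pairs over 0.1. The highest value was that between replicate 2 of cone day 12 and replicate 2 of rod day 12. Of 33 libraries, 14 correlated best with their own number. The replicate numbers thus gave no general pairing, and pairing between particular groups was not tested. A replicate block called 3 genes at day 5, 3 at day 21, 3 from cone day 0 to day 5 and 9 from cone day 5 to day 12, ending the Fgf15 call of cone day 5 (-2.59, edgeR adjusted p = 0.0584), and it moved no other count. Other scalings moved the median of all genes by at most 0.048 on the log2 scale. Fgf15 after day 5 held 0 to 3 counts per library, and at day 0 Fgf2 held 1 to 16 and Fgfr3 held 4 to 10. These levels rest on few counts, and levels below about 3 counts were not detectable at this depth.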
